A study of Ocimum americanum with 4 samples.

Results

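Cysteine and methionine carry the reduced sulfur of a plant cell, and the unigenes that make, activate and break them down are described here in leaves of the basil Ocimum americanum var. pilosum. The members are the unigenes of the deposited annotation that KEGG places in cysteine and methionine metabolism, without those that KEGG also places in carbon fixation or in aromatic amino acid synthesis and without those that match an ACC synthase or ACC oxidase, the enzymes of ethylene synthesis. Of 42816 unigenes, 122 carry the pathway. The pathways named above took away 28 of them and the ethylene enzymes 8, which left 86 unigenes in 24 KEGG orthology groups. Each group is treated here as an enzyme, although some join related enzymes, such as the synthases of spermidine, spermine and thermospermine. The choice used the annotation and no expression value.

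The study compared leaves of 30-day-old plants that had been kept at 4 °C for 12 h with leaves of untreated plants grown at 21 °C, with 2 libraries in each group. All plants were of the same variety, and the labels name no transgene or other agent. The replicates are described as biological, harvested together, but how many plants went into a library and at which hour leaves were taken is not given in the sources used here. Levels are FPKM, fragments scaled to unigene length and to mapped reads, so they are per length and can be compared between unigenes.

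In plants, sulfate is reduced to sulfide, and sulfide is joined to O-acetylserine to give cysteine. Cysteine gives its sulfur to a carbon chain derived from aspartate, which forms homocysteine and then methionine. Most methionine is turned into S-adenosylmethionine (SAM), the methyl donor for DNA, lignin precursors and, in basils, many scent compounds of the leaf glands, and the source of the aminopropyl groups of polyamines and of ethylene. Each methyl transfer leaves S-adenosylhomocysteine, which is split again to homocysteine, and each aminopropyl transfer leaves methylthioadenosine, whose sulfur is returned to methionine by a salvage route called the Yang cycle. No sequence of a member is shown, because the files used here hold values and annotation only.

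Over all unigenes the FPKM added up to between 874864 and 875599 in control and to between 772255 and 773457 in chilling libraries. FPKM values do not show how many reads lie behind each of them. Leaf mesophyll proteins (chlorophyll a-b binding proteins, the small subunit of Rubisco and a photosystem II polypeptide) were matched by 19 unigenes. By the rule given below, 15 of them (78.9%) were called lower after chilling. Of all unigenes tested 25.6% were called, 11.9% higher and 13.8% lower. The summed FPKM of the 19 was 45683 to 45821 in the control and 18325 to 18333 after chilling. The chlorophyll a-b binding proteins summed to 27891 and 27770 FPKM in the control and to 4910 and 4888 FPKM after chilling. The Rubisco small subunit went from 13829 and 13824 FPKM to 10256 and 10265 FPKM. The photosystem II polypeptide went from 4101 and 4089 FPKM to 3168 and 3172 FPKM. In whole leaves, fewer cells of a type and less RNA per cell both lower such values, and their parts were not tested. Of 16 unigenes matching scent enzymes of basil glandular trichomes, 13 were tested and 2 were called, both lower (15.4%, against 25.6% of all unigenes). The summed FPKM of the 16 was 529 to 542 in the control and 511 to 515 after chilling. The sum joins opposite moves, with 8 of those tested above 0, 5 below and a median log2 change of 0.16. Chavicol O-methyltransferase went from 257 and 248 FPKM to 190 FPKM in both chilling libraries. Geraniol synthase went from 116 and 117 FPKM to 185 and 186 FPKM. No unigene matched eugenol O-methyltransferase, germacrene D synthase, the Casparian strip protein of the root endodermis or an anther-specific protein. Of 32 unigenes matching pollen-specific proteins and pollen allergens, 26 were tested. Of these, 3 were called higher and 2 lower (19.2%, against 25.6% of all unigenes). The sum of the 32 was 524 to 527 FPKM in the control and 652 to 658 FPKM after chilling. The part that these shifts and the lower sum of the chilling libraries have in the results below was not tested.

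After chilling more unigenes of the pathway were called lower than higher, as over all unigenes, and the members that fell included some of the most abundant. Of the 86 members, 80 had a mean of at least 1 FPKM and were tested with limma on log2(FPKM + 1). A unigene was called when its p-value, adjusted over all 33036 unigenes tested, was at most 0.01 and its mean FPKM differed at least 2-fold between treatments. By this rule 6 members rose and 13 fell. Of the members' calls 31.6% were higher, against 46.3% of the calls over all unigenes. Across all unigenes 25.6% were called, 11.9% higher and 13.8% lower, so the 23.75% of tested members called was close to the share of all unigenes. Without either of the chilling libraries 1 and 2, only 3 members were called higher, which concerns unigenes of low level described with their enzymes. The members' median log2 change was −0.26, that of all unigenes tested −0.00, and 29 members lay above 0 and 51 below. After scaling each library to an equal sum (TPM), 6 members were called higher and 9 lower. The share of calls that were higher was then 40% in members and 57.9% over all unigenes. The members' median became −0.10 while that of all unigenes moved to 0.15. The groups did not overlap in 68 of 80 members, against 82.0% of all unigenes tested.

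A further 33 members passed the adjusted p with less than a 2-fold difference, 12 of them higher and 21 lower, and 28 did not pass it. These 33 were 41.25% of the members tested, against 22.3% of all unigenes. Replicates lay close together for the 56 members with a mean of at least 10 FPKM, where the log2 ratio of replicate 1 to replicate 2 had an SD of 0.13 in the control and 0.10 after chilling. For the other 24 tested members, the corresponding difference on the log2(FPKM + 1) scale had an SD of 0.41 in the control and 0.30 after chilling. Members tested were more abundant than the transcriptome at large, with a median of 24.6 FPKM against 6.01 FPKM, and 16 members reached a mean of 100 FPKM. Together the members took 0.643% and 0.644% of the total in control libraries, 5629 and 5632 FPKM. After chilling they made up 0.556% and 0.555%, which is 4298 and 4289 FPKM.

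**Figure D1:**
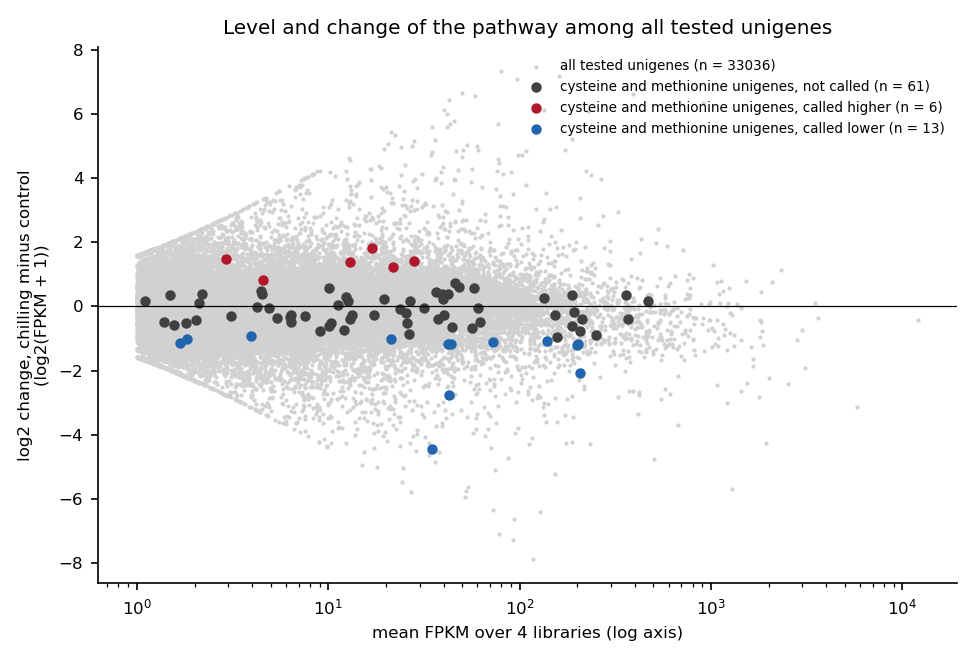
Mean FPKM over the 4 libraries (log axis) against the log2 change from control to chilling on the log2(FPKM + 1) scale, with all 33036 tested unigenes in grey and the 80 tested members in colour. The 6 members called higher have low to middle levels, and 4 of the 13 called lower lie above a mean of 100 FPKM, at the right of the cloud.

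**Figure D2:**
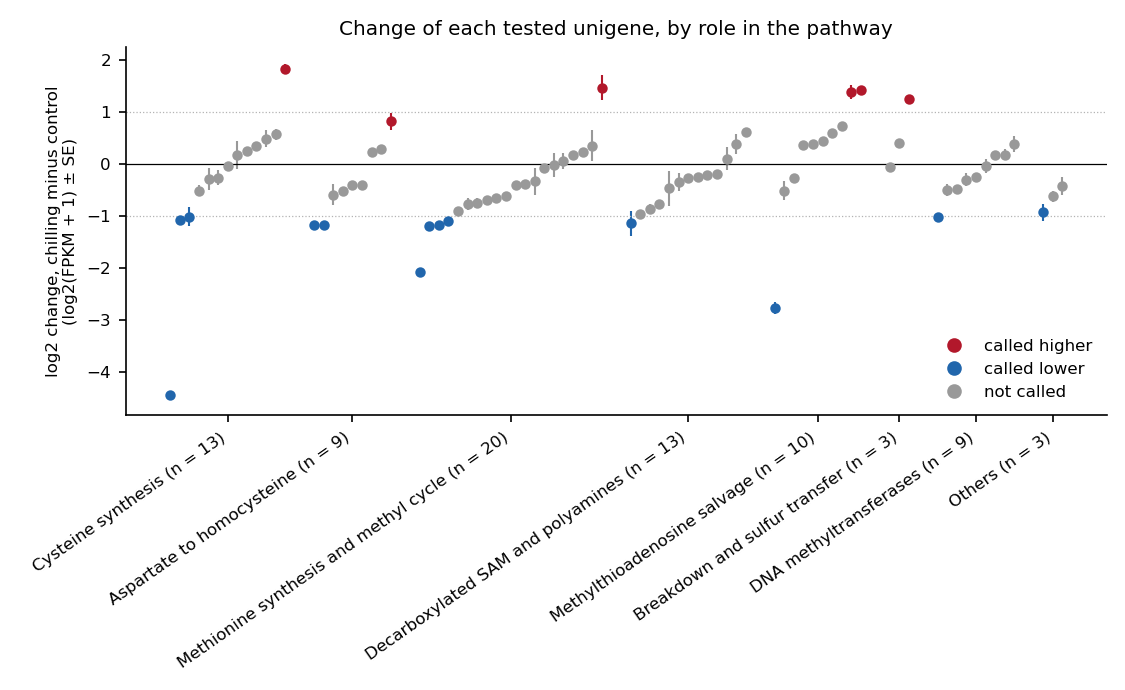
Log2 change of each tested member with its standard error, ordered within its role, on the log2(FPKM + 1) scale (dotted lines at 1 and −1). Serine acetyltransferase Ob_20836, acireductone dioxygenase Ob_12096 and adenosylhomocysteinase Ob_35102 lie below −2, and no tested member lies above 2.

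The strongest change of the pathway was at the first step of cysteine synthesis. Serine acetyltransferase makes O-acetylserine, the acceptor of sulfide, and 5 unigenes matched it. Ob_20836, which matches the chloroplastic SAT1 of Arabidopsis, stood at 68.2 and 66.1 FPKM in the control libraries and at 2.12 and 2.17 FPKM in the chilling libraries. It was the most abundant serine acetyltransferase in the control and the least abundant after chilling. Its level fell 31.3-fold, with a log2 change of −4.44 ± 0.07 (SE, n = 2 per group, adjusted p = 5.05e-08 with limma). The other serine acetyltransferases did not follow it. Ob_23375 (SAT5) had 33.2 and 31.1 FPKM in the control and 31.2 and 31.0 FPKM after chilling, so that its groups overlapped. Ob_15383, a second match to SAT5, was 1.54-fold higher with an adjusted p of 0.00344, under the 2-fold limit of a call, and the mitochondrial SAT3 (Ob_19835) and a further SAT5 match (Ob_15382) did not pass the test.

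Cysteine synthase, which joins sulfide to O-acetylserine, was represented by 7 unigenes in a range from 1.11 to 359 mean FPKM. The 2 most abundant, the plastid type Ob_25660 and Ob_20490, were higher after chilling by less than 2-fold. Ob_25660 had 316 FPKM in both control libraries and 399 and 405 FPKM after chilling, a 1.27-fold difference (adjusted p = 5.86e-06, limma), and Ob_20490 had 120 and 122 FPKM against 145 and 146 FPKM (1.20-fold, adjusted p = 0.000154). Ob_25661, another match to the plastid enzyme, rose from 6.23 and 7.53 FPKM to 27.1 and 26.7 FPKM, 3.91-fold, with a log2 change of 1.83 ± 0.10 and an adjusted p of 1.02e-05. It was the largest rise among the members on the log2(FPKM + 1) scale. Ob_31551, which matches a cysteine synthase of fission yeast, was 1.47-fold lower (adjusted p = 0.00614).

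Ob_37288, whose closest protein is the rice RCS3, had 2.65 and 2.94 FPKM in the control and 0.94 and 0.81 FPKM after chilling and was called lower (log2 change −1.02 ± 0.18, adjusted p = 0.00305). Its call was lost without any single library, at adjusted p-values between 0.0159 and 0.0329. The remaining 2 cysteine synthases, Ob_00093 and Ob_41608, also have a rice protein as best match and overlapped between the groups. Cyanoalanine synthase uses cysteine to bind cyanide in mitochondria and can also make cysteine. Its single unigene Ob_23668 (PCAS-1) fell from 192 and 187 FPKM to 90.6 and 87.7 FPKM, 2.13-fold (log2 change −1.08 ± 0.03, adjusted p = 4.05e-07). Scaled to TPM the log2 change was −0.91, under the 2-fold limit, and the call was lost. In all, 1 of 13 members of cysteine synthesis was called higher and 3 lower, with a median log2 change of −0.04. The called share was 30.8%, against 25.6% of all unigenes.

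**Figure D3:**
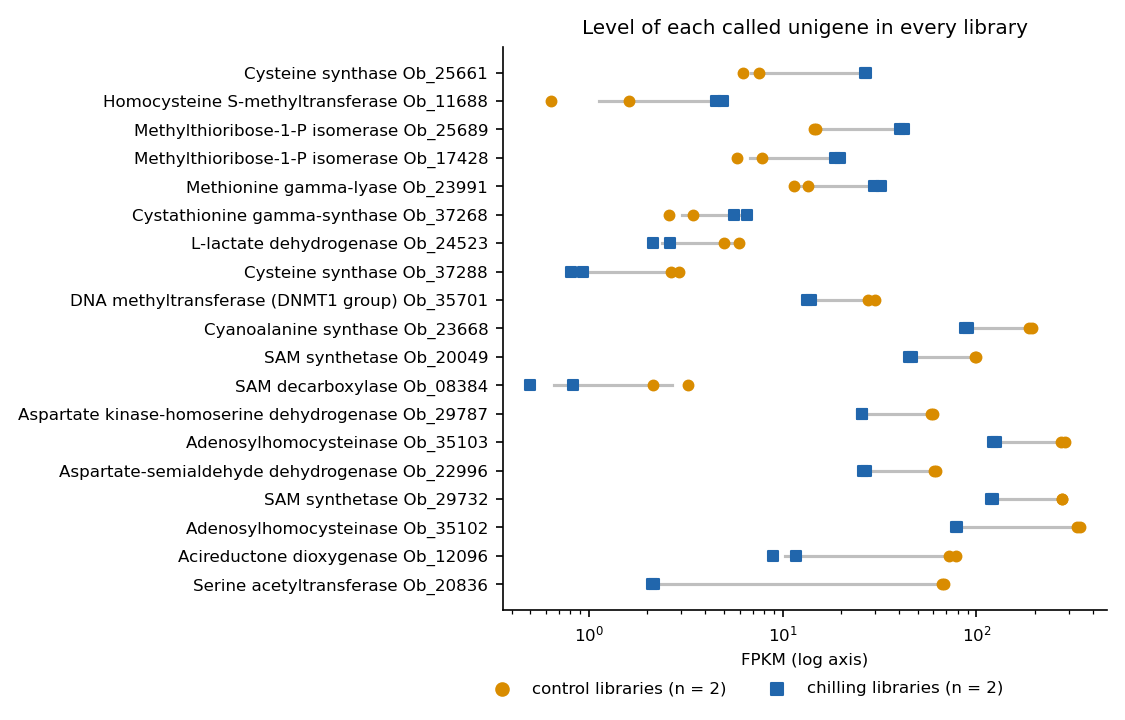
FPKM of the 19 called members in each library (log axis), control libraries as circles, chilling libraries as squares and a grey line between the group means. The groups are separate in every row, and the widest gap is that of serine acetyltransferase Ob_20836, from 67.2 to 2.15 mean FPKM.

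Of the 9 members from aspartate to homocysteine, 1 was called higher and 2 lower, where 11.9% and 13.8% of all unigenes were called in these directions, and the median log2 change was −0.41. Aspartate kinase opens this route, which also yields lysine, threonine and isoleucine, and a fused enzyme carries aspartate kinase together with homoserine dehydrogenase. The fused enzyme Ob_29787 (AKHSDH1) fell from 59.6 and 58.1 FPKM to 25.8 and 25.6 FPKM, 2.29-fold (log2 change −1.17 ± 0.04, adjusted p = 1.77e-06). Aspartate-semialdehyde dehydrogenase, the step between both activities, had the single unigene Ob_22996, at 60.4 and 62.0 FPKM in the control and 26.1 and 27.1 FPKM after chilling. Its fall was 2.30-fold (log2 change −1.17 ± 0.04, adjusted p = 2.10e-06). A second fused enzyme, Ob_24874, was 1.46-fold lower, past the adjusted p but under 2-fold. The fused enzymes, Ob_23929 and Ob_23930, did not pass it.

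Cystathionine gamma-synthase commits the carbon chain to methionine and cystathionine beta-lyase releases homocysteine. The main cystathionine gamma-synthase, Ob_34478 (CGS1), had 242 FPKM in both control libraries and 181 and 182 FPKM after chilling, 1.33-fold lower (adjusted p = 5.39e-06). Cystathionine beta-lyase (Ob_32202) was 1.18-fold higher, with 35.5 and 37.5 FPKM against 41.7 and 44.4 FPKM (adjusted p = 0.0079). A second match to CGS1, Ob_37268, whose best match is a rice protein, was called higher at 2.61 and 3.47 FPKM against 5.65 and 6.58 FPKM. Its log2 change was 0.82 ± 0.16 (adjusted p = 0.0047), and the call was lost without any single library (adjusted p from 0.0214 to 0.0739).

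By the mean over all libraries the methyl cycle held the 2 most abundant members, a SAM synthetase and a methionine synthase, and the lowest median of the lists with more than 3 members. Of its 20 tested members 1 was called higher and 4 lower, 25.0% against 25.6% of all unigenes, and the median log2 change was −0.50. Adenosylhomocysteinase removes S-adenosylhomocysteine, which inhibits methyltransferases. The 2 main unigenes of this enzyme both fell. Ob_35102 stood at 330 and 340 FPKM in the control and at 79.4 and 78.2 FPKM after chilling, a 4.25-fold fall (log2 change −2.07 ± 0.02, adjusted p = 1.62e-08). Ob_35103 stood at 274 and 285 FPKM against 122 and 126 FPKM, a 2.26-fold fall (log2 change −1.17 ± 0.03, adjusted p = 2.94e-07). The call of Ob_35103 was lost after scaling to TPM, at a log2 change of −0.99. Ob_35104 and Ob_14196 were lower by 1.62-fold and 1.75-fold, each past the adjusted p. The rice-like Ob_02960 overlapped between the groups, and Ob_14197 was too low to test.

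SAM synthetase makes SAM from methionine and ATP, and its 8 unigenes moved unequally. Ob_36629 (METK5), the most abundant member of the pathway, had 446 and 434 FPKM in the control and 500 and 495 FPKM after chilling, 1.13-fold higher (adjusted p = 0.000218). Ob_29732 (SAM3) fell from 277 and 278 FPKM to 121 and 119 FPKM, 2.31-fold (log2 change −1.20 ± 0.02, adjusted p = 7.17e-08). Ob_20049 (SAMS1) fell from 98 and 99.97 FPKM to 46.5 and 45.0 FPKM, 2.16-fold (log2 change −1.10 ± 0.04, adjusted p = 9.60e-07), a call that was lost after scaling to TPM at a log2 change of −0.92. Just under the 2-fold limit lay Ob_16086, also a SAMS1, with 325 and 330 FPKM against 174 and 175 FPKM, 1.88-fold lower (adjusted p = 1.47e-07). Ob_16087 was 1.53-fold lower and the rice-like Ob_29733 1.34-fold lower, both past the adjusted p. The remaining Ob_20050 and Ob_07889 overlapped between the groups.

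Methionine itself is made by a cobalamin-independent methionine synthase that takes the methyl group from folate. The main unigene Ob_35986 (MET) had 413 and 420 FPKM in the control and 316 FPKM in both chilling libraries, 1.32-fold lower (adjusted p = 3.20e-06). Homocysteine S-methyltransferase makes methionine with S-methylmethionine, a storage and transport form, as the donor. Ob_11688, a match to HMT-2, had 1.62 and 0.64 FPKM in the control and 4.94 and 4.54 FPKM after chilling and was called higher, with a log2 change of 1.47 ± 0.25 (adjusted p = 0.00233). The call was lost without control library 2 (adjusted p = 0.0144), chilling library 1 (0.0494) or chilling library 2 (0.0438). A more abundant HMT-2 match, Ob_19279, differed by 1.06-fold (adjusted p = 0.281). Ob_30991 belongs to the same KEGG group but matches a serine carboxypeptidase-like protein in Swiss-Prot, and it was 1.58-fold lower at 52.6 and 55.8 FPKM against 35.1 and 33.5 FPKM.

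SAM decarboxylase diverts SAM to polyamines, and its product donates aminopropyl groups to the synthases of spermidine, spermine and thermospermine. The 2 abundant decarboxylases were lower by less than 2-fold. Ob_32032 had 264 and 257 FPKM in the control and 152 and 153 FPKM after chilling (1.71-fold, adjusted p = 6.64e-07), and Ob_32966 (SAMDC1) had 205 and 208 FPKM against 107 and 104 FPKM (1.96-fold, adjusted p = 4.19e-07). Only the scarce Ob_08384 was called, at 2.15 and 3.25 FPKM against 0.50 and 0.83 FPKM (log2 change −1.14 ± 0.23, adjusted p = 0.00539), and its call was lost without any single library (adjusted p from 0.0174 to 0.0593).

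The main spermidine synthase, Ob_29419, was 1.14-fold lower, with 203 and 205 FPKM against 179 and 178 FPKM. Thermospermine synthase, named ACAULIS5 in Arabidopsis, acts in the growth of stems and xylem there, and its 3 matches moved in unlike ways. Ob_25099 was 1.55-fold higher, with 37.2 and 38.2 FPKM against 58.7 and 57.9 FPKM (adjusted p = 2.46e-05). Ob_20815 was 1.85-fold lower, with 34.7 and 33.9 FPKM against 20.4 and 16.7 FPKM (adjusted p = 0.000299), and it became a call without chilling library 1 (adjusted p = 0.00226). Ob_15787 was 1.20-fold lower (adjusted p = 0.00724). Of 13 tested members in this branch, 1 was called, lower (7.69%, against 25.6% of all unigenes), and the median log2 change was −0.26.

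The salvage of methylthioadenosine had a median log2 change of 0.41 over 10 tested members, against −0.00 over all unigenes. Its first enzyme, methylthioadenosine nucleosidase, was represented by Ob_17576 (MTN1), with 35.1 and 34.1 FPKM in the control and 57.6 and 57.97 FPKM after chilling, 1.67-fold higher (adjusted p = 1.24e-05). Methylthioribose kinase followed with Ob_21001 at 1.51-fold and Ob_22453 at 1.37-fold higher, both past the adjusted p. Both unigenes of the next enzyme, methylthioribose-1-phosphate isomerase, rose. Ob_25689 had 15.0 and 14.5 FPKM against 42.1 and 40.3 FPKM, a 2.80-fold rise (log2 change 1.43 ± 0.06, adjusted p = 2.53e-06). Ob_17428 had 7.82 and 5.81 FPKM against 19.8 and 18.6 FPKM, a 2.82-fold rise (log2 change 1.38 ± 0.13, adjusted p = 0.000163), but lost the call without chilling library 1 (adjusted p = 0.0151) or chilling library 2 (0.0140).

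Unigenes of later steps lay in both directions. Of the 2 unigenes for the dehydratase-enolase-phosphatase, the main one, Ob_22808, was 1.20-fold lower and Ob_26086 was 1.32-fold higher. Acireductone dioxygenase makes the keto acid from which methionine is rebuilt. Ob_16380 (ARD3) was 1.28-fold higher, at 161 and 168 FPKM against 210 and 212 FPKM (adjusted p = 5.64e-05). Ob_12096, a match to a grape acireductone dioxygenase, fell from 78.3 and 72.3 FPKM to 11.7 and 8.96 FPKM. This 7.29-fold fall (log2 change −2.76 ± 0.11, adjusted p = 3.07e-06) was the second largest among the members. The rice-like Ob_40287 stayed under 2.5 FPKM in all libraries. Over the salvage list, 2 members were called higher and 1 lower, 30.0% of those tested against 25.6% of all unigenes.

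Methionine gamma-lyase breaks methionine into methanethiol, ammonia and a keto acid that can feed isoleucine synthesis. Its single unigene Ob_23991 rose from 11.5 and 13.5 FPKM to 29.6 and 32.2 FPKM, 2.47-fold (log2 change 1.24 ± 0.09, adjusted p = 4.31e-05). Sulfurtransferase STR1, a mitochondrial enzyme that handles mercaptopyruvate derived from cysteine, had Ob_19280 at 60.2 and 63.7 FPKM against 60.3 and 58.7 FPKM with overlapping groups, and Ob_16868 at 37.0 and 35.6 FPKM against 48.4 and 47.8 FPKM, 1.33-fold higher (adjusted p = 0.000291). L-lactate dehydrogenase, which KEGG lists in the same pathway, had 3 unigenes under 13 FPKM. The most abundant, Ob_24525, had 11.96 and 12.9 FPKM against 7.19 and 8.27 FPKM, 1.61-fold lower (adjusted p = 0.00203). Ob_24523 was called lower, with 4.99 and 5.93 FPKM against 2.14 and 2.63 FPKM (log2 change −0.93 ± 0.16, adjusted p = 0.00252), and lost the call without any single library (adjusted p from 0.0228 to 0.0388).

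KEGG also counts DNA methyltransferases as users of SAM. The 5 members of the DNMT1 group match plant enzymes that maintain CG methylation (MET1 type) or methylate other cytosines in chromatin (CMT2 and CMT3). Ob_35701, a MET1-type match, fell from 29.9 and 27.7 FPKM to 13.4 and 14.0 FPKM, 2.10-fold (log2 change −1.02 ± 0.07, adjusted p = 2.80e-05), a call that was lost after scaling to TPM at a log2 change of −0.86. The most abundant, Ob_36608 (CMT3), was 1.40-fold lower, with 68.5 and 75.3 FPKM against 53 and 49.97 FPKM (adjusted p = 0.000413). The other 3 did not pass the adjusted p. The 4 members that KEGG assigns to DNMT3A do not match a DNA methyltransferase in Swiss-Prot. Ob_32738 matches the human PWWP2A, Ob_36307 the mouse mismatch repair protein Msh6, and Ob_36306 and Ob_36308 have no match, so their place in the pathway rests on the KEGG assignment alone. All 4 were under 15 FPKM and were not called. Over both groups, 1 of 9 members was called, lower (11.1%, against 25.6% of all unigenes), and the median log2 change was −0.26.

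Because several unigenes can carry an enzyme and reads may be divided among near-identical copies, FPKM was also summed per enzyme and tested with limma over all 3120 KEGG groups of the table. Of all groups 14.1% were called, 5.06% higher and 9.04% lower. Among the 24 groups of the pathway, some of which join related enzymes, 2 totals rose and 4 fell, and 18 were not called. Methylthioribose-1-phosphate isomerase rose from 22.8 and 20.3 FPKM to 61.9 and 58.9 FPKM, 2.81-fold (adjusted p = 1.28e-10), and methionine gamma-lyase, with its single unigene, 2.47-fold. The adenosylhomocysteinase total fell from 700 and 717 FPKM to 260 and 261 FPKM, 2.72-fold (log2 change −1.44 ± 0.02, adjusted p = 6.47e-16). Serine acetyltransferase fell from 121 and 115 FPKM to 55.5 and 57.3 FPKM, 2.09-fold (adjusted p = 4.02e-11). Aspartate-semialdehyde dehydrogenase and cyanoalanine synthase, each with a single unigene, were the other 2. Scaled to TPM, the totals of serine acetyltransferase (log2 change −0.87) and cyanoalanine synthase (−0.91) were no longer called.

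Several enzymes with a called unigene kept a total that differed by less than 2-fold. The SAM synthetase total, the highest of the pathway, was 1402 and 1392 FPKM in the control and 1009 FPKM in both chilling libraries, 1.38-fold lower. The SAM decarboxylase total was 1.76-fold lower, at 504 and 498 FPKM against 286 and 284 FPKM. Cysteine synthase was 1.27-fold higher, at 462 and 466 FPKM against 585 and 589 FPKM. The acireductone dioxygenase total was 241 and 243 FPKM in the control and 223 and 222 FPKM after chilling, 1.09-fold lower. Its log2 change of −0.12 turned to 0.06 after scaling to TPM.

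**Figure D4:**
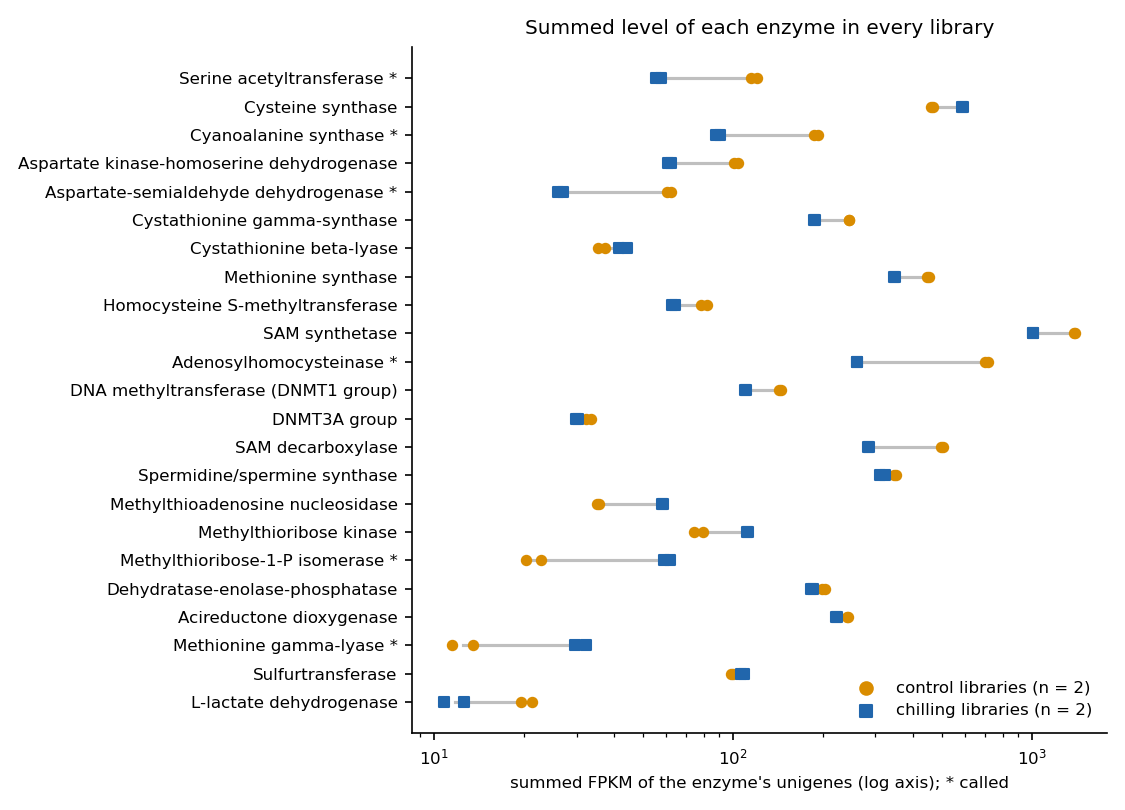
Summed FPKM of the unigenes of each of 23 enzymes in each library (log axis), control libraries as circles and chilling libraries as squares, with an asterisk on the 6 called totals. The largest shift is that of methylthioribose-1-phosphate isomerase, from a mean of 21.5 to 60.4 FPKM, and the SAM synthetase total stays the highest.

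The make-up of some totals differed between the groups. SAT1 (Ob_20836) gave 57.0% of the serine acetyltransferase total in the control and 3.80% after chilling, and SAT5 (Ob_23375) 27.3% and 55.1%. In acireductone dioxygenase Ob_12096 went from 31.1% to 4.63% and ARD3 (Ob_16380) from 67.9% to 94.8%. In SAM synthetase METK5 (Ob_36629) went from 31.5% to 49.3%, while SAM3 (Ob_29732) went from 19.9% to 11.9%. The main adenosylhomocysteinase of the control, Ob_35102, went from 47.3% to 30.3%, and Ob_35103 from 39.5% to 47.6%. In cysteine synthase the 2 main unigenes kept their places, Ob_25660 at 68.2% and 68.5% and Ob_20490 at 26.1% and 24.7%. These shares are means of 2 libraries and were not tested.

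**Figure D5:**
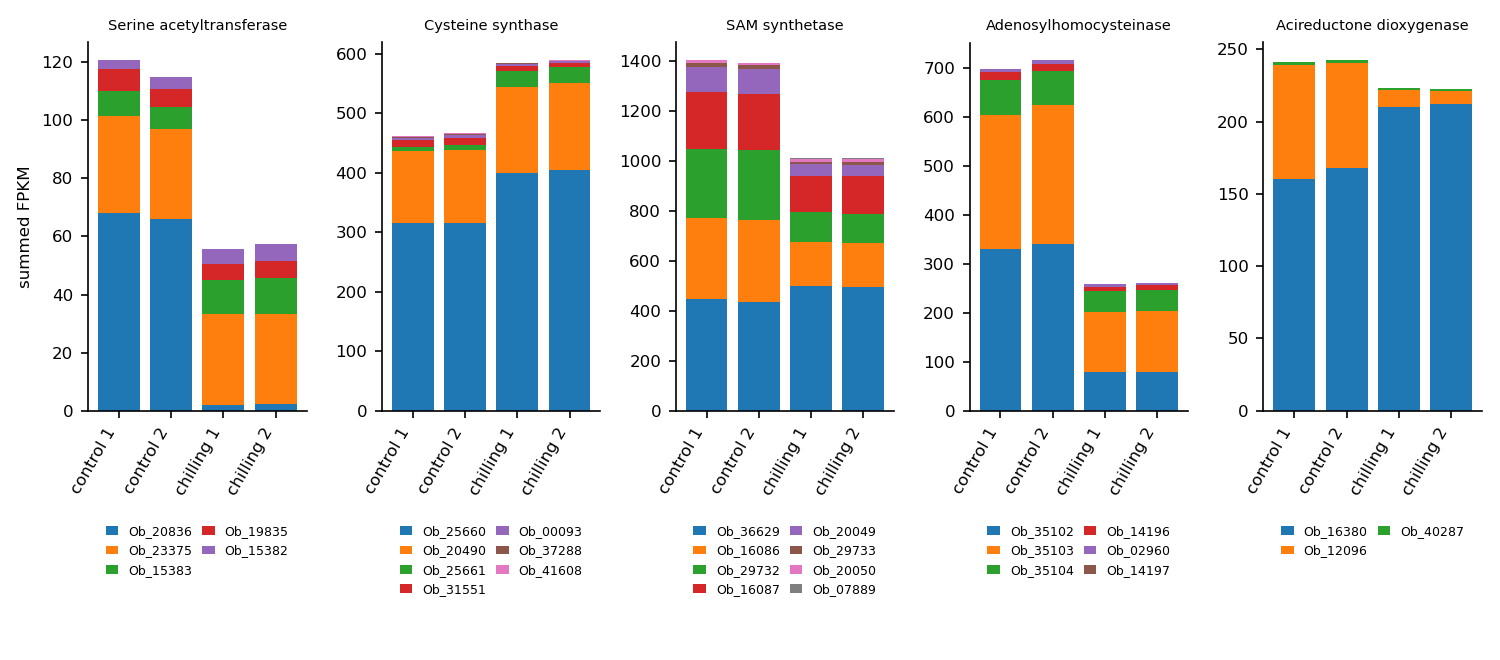
Summed FPKM of 5 enzymes in each library as stacked bars, each colour a unigene. In serine acetyltransferase and acireductone dioxygenase a large segment of the control (Ob_20836 and Ob_12096) is much smaller after chilling, and in SAM synthetase the bottom segment (Ob_36629) is 1.13-fold taller while the 4 large ones above it are smaller.

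Swiss-Prot names a compartment for a minority of the members. Among 11 that match a chloroplastic protein, 2 were called higher and 2 lower, with a median log2 change of 0.17. This median is the value of the scarce Ob_41608, at a mean of 1.11 FPKM with overlapping groups. The summed FPKM of the 11 was lower after chilling, at 787 in both control libraries against 731 and 741. Of 5 mitochondrial matches, 4 were tested and 1 was lower. The remaining 70, of which 65 were tested, had 4 called higher and 10 lower and a median of −0.29. The summed FPKM of the 70 was 4544 and 4551 in the control and 3362 and 3348 after chilling. The called shares were 36.4% (chloroplastic), 25.0% (mitochondrial) and 21.5% (no compartment named), against 25.6% of all unigenes. The best protein match was a grass for 15 members, 11 of which were tested, and their mean level was at most 13.1 FPKM. Of these, 1 was called higher (Ob_37268) and 1 lower (Ob_37288). Whether these unigenes come from the basil was not tested, and leaving out unigenes with a grass or non-plant match kept 17 of the 19 calls. The 6 members not tested reached at most 1.69 FPKM in a library, and 4 of them have a grass match.

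Sulfate assimilation, which supplies the sulfide, changed in both directions. Of its 11 tested unigenes outside the pathway, 2 were called higher and 4 lower, with a median log2 change of 0.15. The called share was 54.5%, against 25.6% of all unigenes. The summed FPKM of this list was 680 and 672 in the control and 342 and 340 after chilling. A large part of that sum is sulfite oxidase Ob_27655, which turns sulfite back to sulfate. It had 286 FPKM in both control libraries and 81.8 and 78.5 FPKM after chilling, and it is among the 4 called lower. The APS reductase Ob_36213 (5'-adenylylsulfate reductase 1), often a controlling step of the route, fell from 119 and 115 FPKM to 13.0 and 11.9 FPKM, 9.43-fold (log2 change −3.14 ± 0.05, adjusted p = 6.88e-08). A second APS reductase, Ob_22991, fell 3.29-fold, ATP sulfurylase Ob_30128 (APS2) 5.37-fold and sulfite oxidase Ob_27655 3.57-fold. The scarce ATP sulfurylases Ob_18148 and Ob_18149 (APS1) rose to at most 12.8 FPKM, and sulfite reductase Ob_33951 was 1.48-fold higher, past the adjusted p. Of 9 unigenes of glutathione synthesis and reduction, 1 was called (11.1%, against 25.6% of all unigenes). This was the scarce Ob_03784, lower at 2.25 and 2.48 FPKM against 0.86 and 0.28 FPKM. The glutathione reductases Ob_28607 and Ob_33013 and the glutamate-cysteine ligase Ob_23315 were higher by 1.41, 1.43 and 1.38-fold, past the adjusted p, and the summed FPKM of the list was 213 and 214 in the control and 270 and 271 after chilling. Among 15 unigenes of methyl group supply by folate 2 were called, both lower (13.3%, against 25.6% of all unigenes), and the median log2 change was −0.41. Both were scarce methylenetetrahydrofolate reductases, Ob_37299 and Ob_37298, at no more than 7.07 FPKM in a library. The main unigene of that enzyme, Ob_26662, was 1.38-fold lower, under the 2-fold limit. The abundant serine hydroxymethyltransferase Ob_28738 was 1.03-fold lower and did not pass the adjusted p. In the threonine branch, threonine synthase Ob_27469, which competes with cystathionine gamma-synthase for homoserine phosphate, was 1.80-fold lower and homoserine kinase Ob_25152 1.59-fold lower, while threonine dehydratase Ob_25101 was 1.32-fold higher, each past the adjusted p. By limma, 0 of the 6 unigenes of this branch were called, against 25.6% of all unigenes, and their median log2 change was 0.06. An unadjusted p under 0.05 was found for 4 of them. Such values were common, since of all 33036 unigenes tested 8121 passed even the adjusted p as higher and 7704 as lower.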

How the data were processed

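Reads of 4 leaf libraries (2 control, 2 chilling) were trimmed, pooled and assembled with Trinity by the authors, who kept the longest isoform of a gene as the unigene and annotated it by its best BLASTX match. The deposited values are FPKM that the authors computed with RSEM, rounded to 2 decimals and not scaled to a common total. Members and lists were chosen with earlier results of these data known. FPKM are not counts, so no count model was run. The package limma 3.58.1 (R 4.3.3, eBayes with trend) was fitted to log2(FPKM + 1) of all unigenes whose mean was 1 FPKM or more, with Benjamini-Hochberg adjustment. The fit had 2 residual degrees of freedom and a prior of 4.41 (9.75 for enzyme totals). Fold changes are ratios of mean FPKM, and log2 changes understate the change of low unigenes. P-values weigh a difference against the spread between 2 replicates per group, drawn towards that of other unigenes (or enzyme totals) of similar level. They cover no variation beyond these replicates. The procedure was tested on simulated data. Named were every called member, the most abundant member of each enzyme and all members of an enzyme with calls in both directions; other members named were chosen after their values were seen. The values of 1 member that the rule names are not reported here. The authors' lists of changed genes, with log2 fold changes, p-values and FDR from edgeR, and 8 columns repeating FPKM in them were not used. The labels and the article differ slightly in growth temperature. Gene names of APS reductases had been turned into dates in the deposited annotation, so their descriptions were used. Other steps used Python 3.11.15 with pandas 2.3.3 and numpy 2.4.6. Tried in turn were another pseudocount (0.1), filters at 0 and 5 FPKM, TPM and median-ratio scaling, a replicate block, a prior without trend, the 2-fold limit set on log2 values, a threshold of 0.05, removal of grass and non-plant matches, and removal of each library.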

Additional observations from a re-analysis of the deposited data

How the results depend on the processing

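No sign of a called member changed under any alternative. The looser threshold of 0.05 uses the same fit and so keeps every call by construction. All 19 calls were kept with a pseudocount of 0.1, median-ratio scaling, an adjusted p of 0.05 and the replicate block, 15 with TPM or without a filter, 14 at a mean FPKM of at least 5, 16 without the trend, 17 with the 2-fold limit on the log2(FPKM + 1) scale and 13 to 15 with a library left out. The losses outside TPM are Ob_08384, Ob_11688, Ob_17428, Ob_24523, Ob_37268 and Ob_37288, with means of up to 13 FPKM. With a library left out, members called higher numbered 3 to 5 and lower 10 to 11, and unigenes called higher 1748 to 2425 and lower 2251 to 2355. The 6 enzyme calls were kept there, but without a control library the prior variance of that fit had unlimited degrees of freedom, so its p-values are not given. At a mean FPKM of at least 5, 2035 unigenes were higher and 2193 lower. Under TPM 2 enzyme totals were lower instead of 4, and 57.9% of all calls (5051 higher, 3677 lower) were higher against 46.3% (3917 and 4548). TPM turned the sign of 5 members that were not called (Ob_19280, Ob_23375, Ob_36306, Ob_19279 and Ob_17239).

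Replicate numbers were checked for pairing. Deviations from the group means had a correlation of 0.0076 between equal numbers, so no shared deviation was seen. Whether equal numbers were paired in the design cannot be told from this value. With the replicate block, 6 members were called higher and 13 lower, 2 enzyme totals higher and 4 lower, and 3576 unigenes higher and 4102 lower.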
